A study of Nematostella vectensis with 10 samples.

Results

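In the RNAseq of *Nematostella vectensis* gastrulae, the 200 genes that differed most between replicate pairs of libraries were chosen. They were taken from genes with small differences between the knockdown and the control library of a pair. *Nematostella vectensis* is a sea anemone, and *Nvznf845* is a zinc finger gene that acts early in making cnidocytes, the stinging cells. The 10 libraries were poly(A) RNA of whole wildtype embryos at 28 hpf, raised at 24 °C, with about 1000 embryos pooled in each. Embryos of 5 libraries were injected with *Nvznf845* shRNA and those of the other 5 with a scramble RNA as control, so every embryo had received an injected RNA. The replicate numbers join 1 knockdown and 1 control library into each of 5 pairs, and the labels give 4 batches: LA40 for pair 1, LA42 for pair 2, LA45 for pair 3, and LA48 for pairs 4 and 5. The labels do not say what else a batch shared, such as parents, spawning day or library preparation, so these cannot be told apart here. A library is a pool of embryos, so its values hold no spread between embryos, and in such bulk RNA fewer cells of a type and less RNA per cell cannot be told apart.

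The 200 genes were chosen from the same values that describe them. Counts were summed over the transcripts of each of 24520 genes, scaled to a common size by the median of the ratios to the gene's mean level over all libraries (normalized counts), and put on a log2 scale after adding 0.5. Of these genes, 15154 had a mean normalized count of at least 50, and 7849 of those differed between knockdown and control by less than 0.585 on the log2 scale in each of the 5 pairs. The 200 with the largest range of the 5 pair means were taken (a pair mean is the mean log2 level of its 2 libraries), after the study's list of published cnidocyte genes had been dropped. That list names 42 genes, 38 of them with a gene number. Only 1 of the 38 passed both the count minimum and the limit on the pair difference. None of the 38 would have been among the 200, which therefore says little about them. The limit on the pair difference did much of the choosing: 2050 of the 7305 genes that missed it had a range above that of the last gene taken, and in pair 3 alone 5523 of the 15154 genes missed it. The other 7649 genes past both limits are the genes compared with below. All 200 are known here by gene number only. The gene numbers could not be matched to names, functions or sequences in the sources used here, so no role is given for any of them.

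Genes can differ between batches of embryos in several ways that are well known in general. Clutches of a sea anemone come from different parents, differ in the RNA that the mother laid down in the egg, and do not develop at precisely the same speed. Samples handled at different times can also differ in RNA recovery and in how evenly long and short transcripts are captured. A library is a fixed number of reads shared among all transcripts, so where a few transcripts take many of them, every other gene receives fewer, and scaling is meant to correct for this.

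The labels matched the targeted gene. *Nvznf845* (NV2.17877) stood at 257, 329, 179, 343 and 292 normalized counts in knockdown libraries 1 to 5 and at 1357, 1456, 1602, 1581 and 1577 in control libraries 1 to 5, with no overlap between the groups (−2.42 ± 0.159 standard error on the log2 scale, n = 5 each, adjusted p = 5.06e-07 in edgeR's quasi-likelihood test). Total counts ran from 20848941 to 35960095 in knockdown libraries and from 18891111 to 49293261 in control libraries. The libraries of pair 3 stood apart from the other 8. Their 10 most abundant genes took 67.4% (knockdown) and 56.0% (control) of all counts, against 28.0% and 33.3% in pair 1 and 6.24% to 10.8% in pairs 2, 4 and 5. Summed over the 38 listed cnidocyte genes, normalized counts were 7719 to 8214 in knockdown libraries, with pair 3 at 8075, and 40754 to 56137 in control libraries, with pair 3 lowest. None of the 38 was at 0 in any control library, and 5 were at 0 in at least 1 of the 10 libraries. *foxA*, a forkhead gene of the oral territory of the gastrula, was at 2630.0 normalized counts in the knockdown and 2254 in the control library of pair 3, within 2525 to 3082 over the knockdown libraries and lowest of the controls (up to 3944). On TPM both the list (138 and 1697 TPM) and *foxA* (40.8 and 55.1 TPM) were lowest in pair 3 of each group, but so was the median gene, by the shift given below.

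The pair means of the 200 genes spanned 1.00 to 5.04 on the log2 scale, with a median of 1.20, which is a 2.30-fold difference between the highest and the lowest pair. The median range of the other 7649 genes was 0.37. These ranges are what the choice rested on and are given as a description. In 44 of the 200 the range was at least 1.5, and in 8 at least 2. The list ends without a step: NV2.660 and NV2.13806, the last 2 genes taken, had ranges of 1.0042 and 1.0021, and NV2.1464 and NV2.604, the first left out, had 1.0011 and 1.0003. None of the 200 was at or under 3 counts in any library. Their mean normalized count had a median of 129, against 637 for the other genes, and their mean TPM, which is per length, a median of 2.66 against 18.5. Most are therefore genes of low level.

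A majority of the 200 were high in pair 3 and in no other pair. Each gene's 5 pair means were put in order and split at the widest gap between neighbours. In 105 genes (52.5%) the split set pair 3 above the other 4 pairs on the scale used to choose them, while on a scale of total counts only 16 of these 105, and on TPM 43, stood above the mean of the other pairs. The median of all 7849 genes in pair 3 itself lay at −0.11 after median-of-ratios scaling, at −1.50 after total-count scaling and at −1.15 on TPM. All 105 lay above that median on each of these scales, which a scaling that shifts all genes of a library alike cannot change, so "high in pair 3" is meant relative to the other genes. Among the other 7649 genes, 523 (6.84%) had pair 3 alone above the gap. In 104 of the 105, each of the 2 libraries of pair 3 was above all 8 others. The commonest pattern among the other genes was the opposite one, with pair 3 alone below the gap, in 1594 genes (20.8%), and 13 of the 200 (6.5%) had it. In all 13, both libraries of pair 3 were below the other 8, a count that was not taken for the other genes of that pattern. The limit on the pair difference and the grouping by pair 3 set much of this count and of the 104. By the highest pair alone, whatever the gap, pair 3 led in 126 of the 200 genes (63%) and in 1238 of the others (16.2%). Both libraries of pair 3 were above the other 8 in 113 of those 126 and in 370 of those 1238. Pair 3 was lowest in 27 (13.5%) and 3520 (46.0%). Pair 1 led in 29 of the 200 and in 3071 of the others (40.1%), pair 2 in 20, pair 4 in 18 and pair 5 in 7. A further 11 genes (5.5%) were above the gap in pair 1 alone, against 12.4% of the others. Another 10 (5%) were above it in pairs 1 and 3, against 1.19% of the others. The remaining 61 were spread over 16 patterns.

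**Figure D1:**
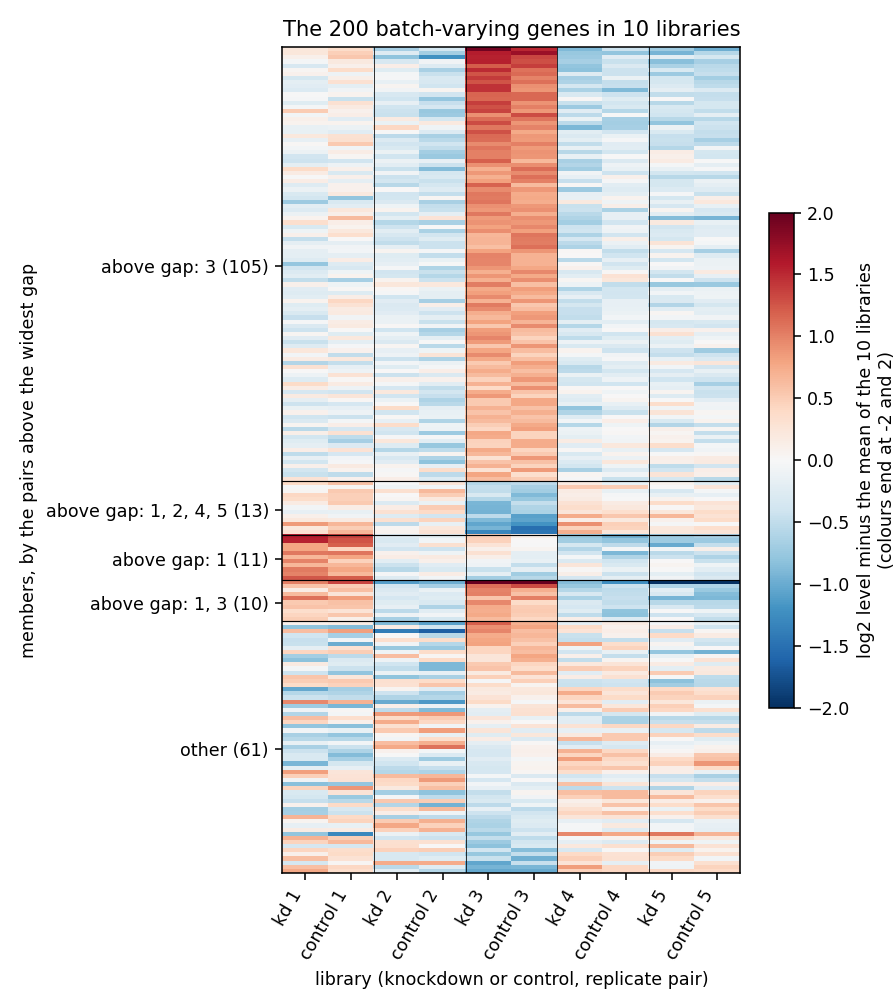
Each row is 1 of the 200 genes and each column 1 of the 10 libraries, set out by pair; colour gives the log2 normalized count minus the gene's mean over the 10 libraries. Rows are grouped by the pairs above the widest gap, and the largest block holds the 105 genes whose pair 3 mean stood alone above the gap on this scale; on total counts 16 and on TPM 43 of them had pair 3 above the mean of the other pairs.

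The gene with the largest range, NV2.25912, was high in pairs 3 and 1. Its normalized counts were 468, 109, 2106, 128 and 58.4 in knockdown libraries 1 to 5 and 588, 119, 1613, 99.1 and 53.1 in control libraries 1 to 5. Both libraries of pair 3 were above both of pair 1, those of pair 1 above the rest, and pair 5 was lowest, 32.8-fold below pair 3. Its range of 5.04 was far above that of the second gene (2.56). The most abundant genes had the same order of pairs. NV2.13030, the most abundant gene of the set of libraries, had pair means of 22.0, 19.7, 23.9, 19.4 and 18.4 on the log2 scale, and NV2.25912 had 9.04, 6.84, 10.8, 6.82 and 5.81. Of the 10 most abundant genes, 9 had ranges of 4.88 to 6.24 with pair 3 highest and pair 1 second. None of these 9 is among the 200, because each differed by 0.66 or more between the 2 libraries of at least 1 pair, past the limit of 0.585.

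Among genes above the gap in pair 3 alone, NV2.22887 had the widest gap. It stood at 67.5, 36.2, 222, 31.0 and 35.2 normalized counts in knockdown libraries 1 to 5 and at 74.9, 44.5, 166, 43.0 and 29.0 in the controls. The values of pair 3 were well above those of any other library, and pair 1 came second. NV2.22098 had 81.7, 58.2, 210, 41.3 and 36.5 normalized counts in knockdown libraries and 97.4, 43.3, 231, 40.4 and 47.2 in controls, again with pair 3 high and pair 1 next. NV2.8153 had 186, 99.1, 503, 105 and 149 after knockdown and 251, 74.1, 438, 148 and 135 in controls. NV2.25371 had 114, 92.7, 343, 73.0 and 65.1 and 133, 111, 283, 85.4 and 72.9. In each of these genes the knockdown and control values of a pair lay close together, as the rule required, and no library outside pair 3 reached the level of pair 3. Pair 1 was second in 54 of the 105 genes. NV2.9412 is a case where it was not clear: it had 39.2, 45.4, 131, 30.4 and 42.2 normalized counts after knockdown and 45.5, 49.4, 88.2, 25.5 and 39.3 in controls, so that pair 3 was high and pairs 1, 2 and 5 overlapped.

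Some of these genes are very long. NV2.14240, with a main transcript of 14051 bases (the main transcript is the one with the most counts), stood at 627, 513, 1707, 344 and 493 normalized counts after knockdown and at 789, 387, 1289.5, 451 and 429 in controls. NV2.19328, of 11442 bases, had 62.8, 85.7, 182, 44.9 and 50.5 after knockdown and 83.5, 65.0, 205, 63.6 and 53.9 in controls. Both had pair 3 above every other library, at very different levels.

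**Figure D2:**
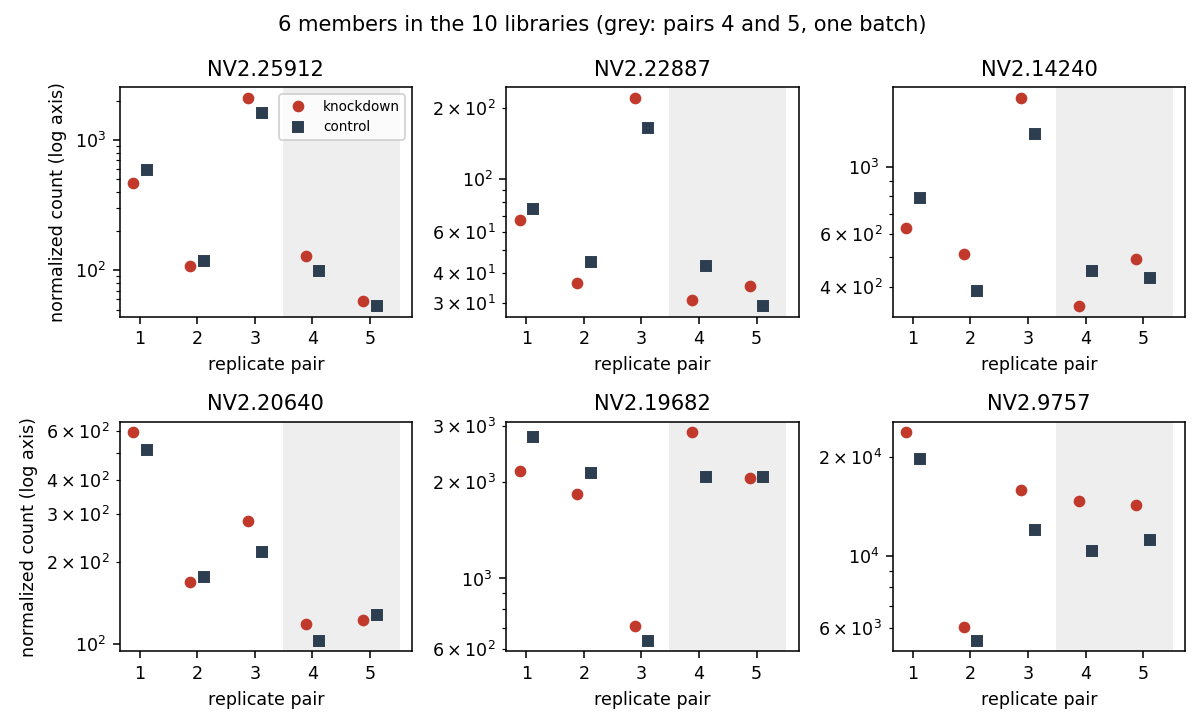
Normalized counts (log axis) of 6 of the 200 genes in each of 5 pairs, with knockdown libraries as circles and control libraries as squares; grey marks pairs 4 and 5, which share a batch. NV2.25912, NV2.22887 and NV2.14240 were highest in pair 3, NV2.20640 and NV2.9757 in pair 1, and NV2.19682 was lowest in pair 3.

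The 13 genes below the gap in pair 3 alone included some of the most abundant of the 200. NV2.19682 stood at 2163, 1838, 708, 2870.2 and 2060.0 normalized counts in knockdown libraries 1 to 5 and at 2780, 2143, 638, 2080.2 and 2086 in controls. NV2.19626 had 853, 759, 386, 1012 and 855 after knockdown and 1035, 860, 259, 1005 and 928 in controls. Pair 3 was lowest in both, and no other library came down to its level. NV2.445 differed less, with 3054, 4241, 1776, 4056 and 3998 after knockdown and 3090, 4517, 2209, 4306 and 4393 in controls. In that gene pair 1 lay between pair 3 and the rest. NV2.19626, of 497 bases, and NV2.445, of 1331 bases, were among the 3 genes with the highest mean TPM of the 200, at 209 and 208 TPM.

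A smaller number of genes turned on pair 1 or pair 2. NV2.20640 and NV2.18680 followed one another closely: the first stood at 596, 169, 282, 119 and 123 normalized counts after knockdown and at 513, 176, 218, 103 and 128 in controls. The second stood at 601, 167, 285, 128 and 126 and at 492, 198, 209, 119 and 124. Both were highest in pair 1 and second in pair 3. NV2.23908 was also high in pair 1 alone, but lowest in pair 3, with 1304, 457, 342, 435 and 522 after knockdown and 1268, 528, 373, 481 and 449 in controls. NV2.9433, high in pairs 1 and 3, had 235, 86.7, 161, 70.3 and 57.5 after knockdown and 196, 92.4, 220, 79.1 and 58.6 in controls, so that the libraries of pairs 1 and 3 overlapped each other and no other library.

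Genes low in pair 2 formed another small group of 8 (4%), where 2.37% of the other genes had that pattern. NV2.9757, at 376 TPM the most abundant of the 200 per length, had 23870.0, 6072, 15881, 14677 and 14259 normalized counts after knockdown and 19763, 5488, 12003, 10369 and 11201 in controls. Both libraries of pair 2 were below all others and both of pair 1 above all others. NV2.4703 had 71.8, 17.4, 92.7, 56.7 and 34.0 after knockdown and 83.5, 14.8, 72.3, 51.3 and 48.3 in controls. NV2.19308 had 73.0, 37.0, 158, 60.3 and 67.6 and 76.3, 32.4, 113, 76.9 and 61.6. In both, pair 2 lay below the other 8 libraries, while pairs 1, 4 and 5 did not form separate levels in NV2.19308. A group of the same size, 8 genes (4%), was high in pair 2 alone, against 5.58% of the other genes.

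Pairs 4 and 5, which share a batch, fell on the same side of the gap in 192 of the 200 genes (96%), against 6231 of the other 7649 (81.5%). Any gene split off by pair 1, 2 or 3 alone holds pairs 4 and 5 together by construction. The split also rests on the pair means that chose the genes, so nothing is read from this count. The size of the difference between the means of pairs 4 and 5 had a median of 0.18 on the log2 scale in the 200 genes and 0.08 in the others. The same median for pair 3 against the mean of pairs 4 and 5 was 0.93 in the 200 genes and 0.16 in the others, and for pairs 1 and 2 it was 0.42 and 0.32 in the 200. In a fit over all genes (edgeR's quasi-likelihood test), no gene of 19001 differed between pair 5 and pair 4 once p-values were adjusted (threshold 0.05), and 179 did at an unadjusted p under 0.05, of which 10 are among the 200. Between batches, 97 of the 200 passed the same threshold, where 496 of all 19001 genes did (2.61%). For pair 3 against pairs 4 and 5, 92 of the 200 were called, where 2.63% of all genes were. These contrasts use the values that chose the genes, so nothing is read from the counts. The batch call depends on the fit: 57 genes, 10 of them among the 200, were called with the replicate number as a block in place of the batch. Leaving out any 1 library moved the count of genes by more than 1.5 times, from 60 genes, 11 of them among the 200, without the control library of pair 5 to 1704 genes without the control library of pair 3.

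None of the 200 was called after knockdown by edgeR, where 1032 of 19001 genes were called in either direction (5.43%), 803 of them lower (4.23%) and 229 higher (1.21%), and none had an unadjusted p under 0.05 or was called by DESeq2. The rule removed any gene with a large knockdown difference in a single pair, so this count says nothing about the 200. Their fitted log2 fold changes ran from −0.46 to 0.44, with a median of 0.02.

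**Figure D3:**
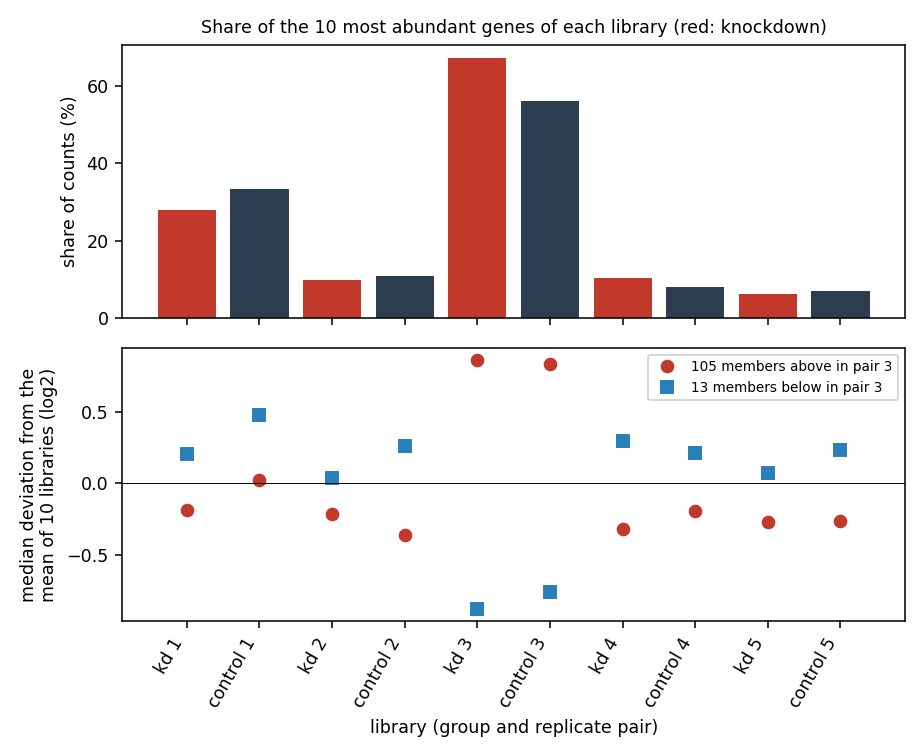
Upper panel, share of all counts taken by the 10 most abundant genes of each library (bars from 0, red for knockdown); lower panel, median deviation from each gene's mean over the 10 libraries, on the log2 scale, of the 105 genes above the gap in pair 3 alone and of the 13 below it. The 2 libraries of pair 3 hold the largest shares (67.4% and 56.0%) and the highest medians of the 105 genes (0.86 and 0.84); on total counts 16 and on TPM 43 of the 105 stood above the mean of the other pairs in pair 3.

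Library by library, the 105 genes had medians of 105, 92.7, 211, 89.2 and 88.6 normalized counts in knockdown libraries 1 to 5 and of 108, 86.0, 192, 92.6 and 92.0 in control libraries 1 to 5. The 13 genes had medians of 256, 188, 121, 254 and 183 and of 269, 209, 121, 189 and 172. The knockdown and the control library of pair 3 had size factors, by which counts were divided, of 0.496 and 1.06, and that their scaled levels were alike follows from the limit on the pair difference. The share of the 10 most abundant genes was also highest in pair 3. The median deviation of the 105 genes was −0.18 and 0.02 on the log2 scale in pair 1 and −0.36 to −0.19 in pairs 2, 4 and 5, which the pattern they were grouped by sets in part. The mean fragment length was 238 and 261 bases in the knockdown and control library of pair 3 and 239 to 271 in the other 8. Whether the abundant genes or the fragment length had a part in these differences was not tested.

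The length of the transcripts was not part of the rule, and the patterns differed in it. The 200 genes had a median main transcript of 2838 bases (quartiles 1931 and 4272), against 2383 bases (1756 and 3170) in the other 7649 genes. The direction depends on the scale of the rule: the 200 genes that the same rule takes under total counts have a median of 1404 bases and those it takes on gene TPM a median of 1126. The 105 genes above the gap in pair 3 alone had a median of 3872 bases (2618 and 5726), and 49 of them (46.7%) were at least 4000 bases long. The genes of that pattern in the sets rebuilt under total counts and on TPM, 3 and 8 genes, had medians of 2880.0 and 2054.5 bases. The 13 genes below the gap in pair 3 alone had a median of 1256 bases (921 and 1713), and none reached 4000 bases, the longest being 2379. The 11 genes above the gap in pair 1 alone were also short, with a median of 1326 bases, and the 10 above it in pairs 1 and 3 had a median of 2823 bases. The 8 genes high in pair 2 alone had a median of 2529.5 bases. In all, 60 of the 200 (30%) were at least 4000 bases long, where 11.3% of the other genes were.

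**Figure D4:**
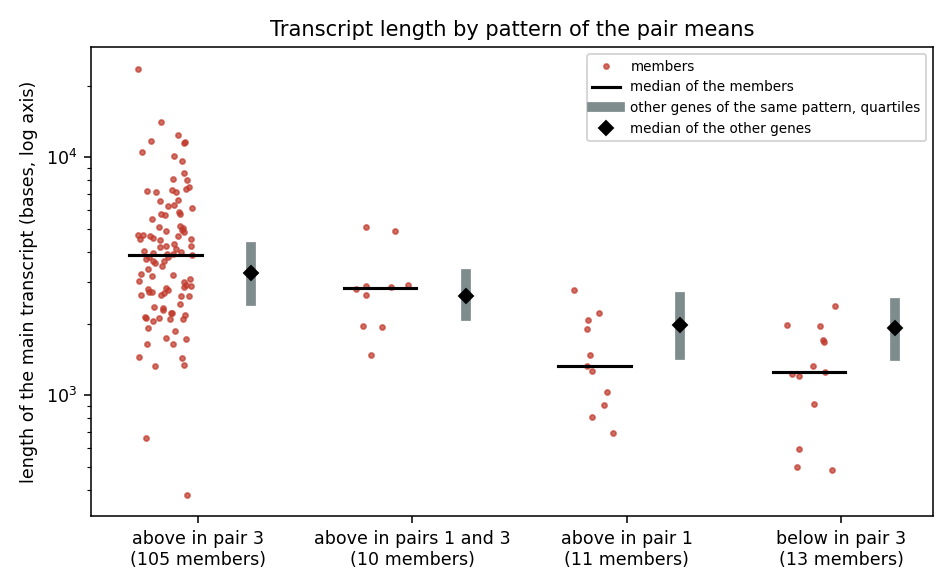
Length of the main transcript (bases, log axis) of genes in the 4 patterns held by at least 10 of the 200; points are single genes and horizontal lines their medians, while grey bars and diamonds give the quartiles and the median of the other genes with the same pattern. Medians run from 3872 bases (above in pair 3, on the median-of-ratios scale; on total counts 16 and on TPM 43 of these 105 had pair 3 above the mean of the other pairs) to 1256 bases (below in pair 3).

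Genes of low level that were not chosen were shorter, though they were not matched to the 200 in level or pattern. Of the genes not chosen, the 1382 with a mean count no higher than the third quartile of the 200 had a median length of 2214 bases, and 10.1% of them were at least 4000 bases long. Of these 1382, 149 (10.8%) had pair 3 alone above the gap, and these 149 had a median of 2962 bases. At any level, the 523 genes of that pattern that were not chosen had a median of 3261 bases. With all 7849 genes sorted by length into 5 groups of about equal size, the 200 genes made up 2.42%, 1.72%, 1.53%, 2.29% and 4.78% of the groups from the shortest to the longest. The group of the longest, of 3432 bases and more, held 60 of the 105 genes above the gap in pair 3 alone and none of the 13 below it, whereas the group of the shortest, up to 1620 bases, held 6 and 8.

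The same relation ran through the genes that were not chosen. Over the other 7649 genes, the deviation of pair 3 from the mean of the other pairs had a Spearman correlation with length of 0.49, and over the 200 genes of 0.41; these are across genes that share the same libraries, and are given as a description. The values that follow are over all 7849 genes past both limits, the 200 among them. From the shortest to the longest of these 5 groups, the median deviation of pair 3 was −0.26, −0.18, −0.11, −0.05 and 0.09 on the log2 scale. Pair 1 ran the other way, with medians of 0.24, 0.15, 0.10, 0.01 and −0.10. Each pair is set against the mean of the others, so a rise in 1 pair goes with a fall elsewhere by construction. Pair 3 is part of the reference of pair 1, and the trends are not independent. The pair means of pairs 2, 4 and 5 had correlations with length of −0.13, −0.19 and 0.24. In pair 3 the relation was seen in both groups of libraries, with correlations of 0.25 in knockdown and 0.52 in control libraries, and on TPM it was 0.55. In pairs 2 and 4 the 2 libraries went opposite ways, with 0.20 in the knockdown and −0.32 in the control library of pair 2 and −0.42 and 0.17 in those of pair 4. Transcript length also goes with what a gene encodes, and neither that nor the fragment length was separated from the batch here.

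**Figure D5:**
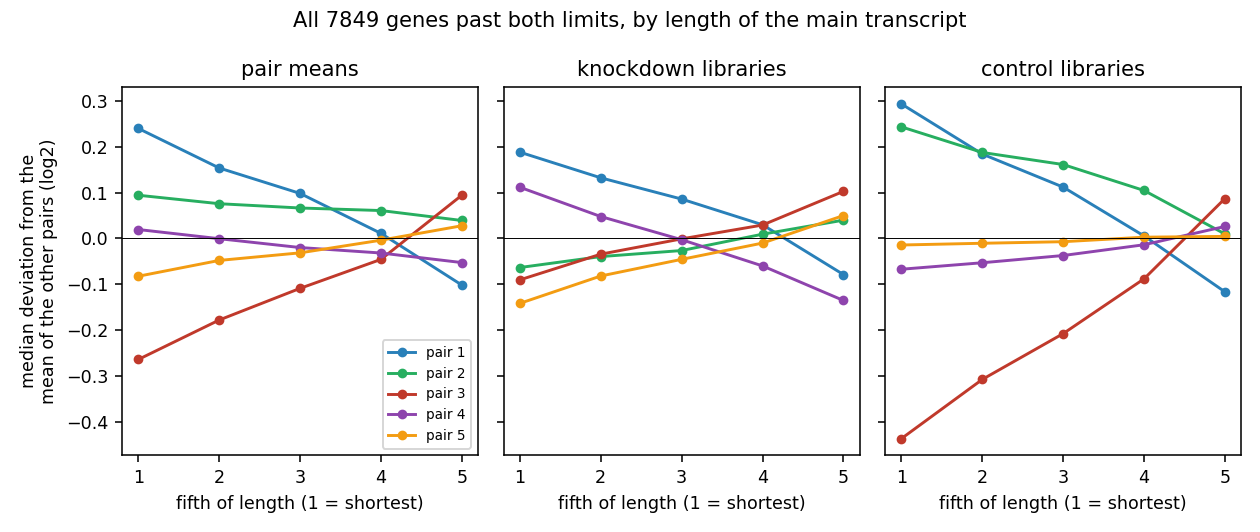
Median deviation of each pair from the mean of the other pairs (log2), in 5 equal groups of genes by length of the main transcript, over all 7849 genes past both limits; panels show pair means, knockdown libraries and control libraries. Pair 3 rises from −0.26 in the group of the shortest to 0.09 in that of the longest, in the pair means, and pair 1 falls from 0.24 to −0.10. Each pair is set against the others, so these trends are not independent.

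Few of the 200 genes have several transcripts, 32 (16%) against 31.2% of the other genes. For genes with at least 2 transcripts, the share of counts assigned to the main transcript is a measure that the rule did not use. It was tested between batches with limma on the log2 ratio of the main transcript to the others in 3933 genes, and 8 passed an adjusted threshold of 0.05 (0.203%). Of the 200 genes, 21 could be tested and 1 was called, NV2.4914. Its main transcript took 56.8%, 20.5%, 100%, 74.0% and 53.2% of the gene's counts in knockdown libraries 1 to 5 and 58.4%, 28.7%, 100%, 61.1% and 38.1% in controls (adjusted p = 0.0359). Both libraries of pair 3 were at 100% and both of pair 2 lowest, with no overlap between either pair and the other libraries. The gene itself ran from 68.8 to 175 normalized counts, so few counts stand behind each share, and the call was lost with a pseudocount of 5, without pair 3, and without any single library other than the knockdown library of pair 4.

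The next smallest p-values did not pass the test. NV2.9473 had its main transcript at 74.1%, 95.5%, 50.9%, 56.8% and 80.9% after knockdown and at 81.6%, 95.7%, 65.2%, 83.5% and 87.3% in controls (adjusted p = 0.250, limma), and NV2.15056 at 87.0%, 92.1%, 88.0%, 91.3% and 89.3% and at 82.9%, 90.4%, 73.0%, 87.6% and 85.7% (adjusted p = 0.477, limma). In the first, pair 2 was above all other libraries and the knockdown libraries of pairs 3 and 4 were lowest, while in the second the pairs overlapped. The range of the pair means of this share had a median of 23.3 percentage points in the 21 genes and 10.7 in the other 3912 tested. These 2 sets were not matched for count, and shares from few counts vary more by sampling, so nothing is read from the difference. Of genes with neighbouring numbers, 5 couples were both among the 200, and 4 of these couples were both above the gap in pair 3 alone. Such couples were not counted among the other genes, so nothing is read from these counts. NV2.6661 and NV2.6662, with ranges of 1.80 and 1.64, were the most alike over the 10 libraries (Pearson correlation of log2 levels 0.98). In the other couples this correlation ran from 0.47 to 0.89. Gene numbers of the study's annotation were used here without coordinates, so whether these couples overlap on the genome was not examined.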

How the data were processed

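Whole-embryo poly(A) RNA was sequenced as paired reads of 150 bases. The submitters' processing notes name Salmon, and the study's methods say that reads were mapped to the Nvec200 genome on the Galaxy platform; no version or settings of Salmon are stated in the sources used here. For each transcript the authors deposited an estimated count (not always a whole number) and a TPM value, with its length and effective length. Salmon divides reads that fit several transcripts, so near-identical copies are less certain. The mean fragment length was read as length minus effective length over transcripts longer than 3000 bases.

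Estimated counts were summed to genes and rounded for the count tests. Depth is the total count, 18891111 to 49293261 per library. Gene counts were fitted in R 4.3.3 by edgeR 4.0.16 (TMM normalization, a filterByExpr minimum of 10, glmQLFit with robust estimation, Benjamini-Hochberg adjustment) with condition and batch as terms for the batches and condition alone for the knockdown, where a call also needed a log2 fold change of 0.585. Standard errors are the fold change over the square root of F. Transcript shares were tested with limma 3.58.1 on log2 ratios after adding 0.5, in genes whose main and other transcripts averaged at least 10 counts. The alternatives were DESeq2 1.42.0, other scalings, count minimums, limits and pseudocounts, the replicate block, and leaving out libraries. In simulated data of 19001 genes, the batch test called 90% of 4-fold and 14% of 2-fold changes and 0.0589% of unchanged genes. The knockdown test called 95%, 67% and 0.0804%. The data simulated for the knockdown held no differences between batches, and their spread was that left after fitting batch. The knockdown rates may therefore be too high for genes that differ between batches. Over 3933 genes, the share test called 88.5% of 4-fold changes of odds and 0.350% of unchanged genes. Other steps used Python 3.11.15 with pandas 2.3.3 and numpy 2.4.6.

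The labels give both libraries of a replicate number the same batch, and the study's methods call the replicates paired. Deviations from the group means correlated at 0.61, −0.11, 0.14, 0.15 and 0.72 within pairs 1 to 5. No libraries were duplicates: the median chi-square per gene between any 2 of them was at least 3.20 times what sampling alone gives. The labels do not say that replicates came from separate cultures beyond the batch, so p-values measure the spread between these libraries. The members and lists were chosen with earlier results of these data known. Genes were named by rule: the 12 largest ranges, the 2 widest gaps of each pattern held by at least 10 genes, the 3 highest mean TPM, the 3 smallest p-values of the share test and the 4 genes around the last rank. NV2.13030 and *foxA*, and the neighbouring couple, were named outside that rule after their values had been seen.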

Additional observations from a re-analysis of the deposited data

Results flagged for a closer look

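In groups of 5 libraries, a value was looked at again where the gap between the highest or lowest library and its nearest neighbour took more than 0.71 of the group's whole range (Dixon's 95% value for 5). Of 56 groups looked at, 8 did so. The usual rate of about 1 in 20 groups does not apply here. Most of the groups were single genes, many of them named for a large range or a wide gap, which favours such values. The median deviation of the 105 genes above in pair 3 had its highest knockdown library apart from the others by 0.885 of the range. The median deviation of the 13 genes below in pair 3 had its lowest library apart by 0.782 in the knockdown group and by 0.787 in the control group. These are the libraries of pair 3, and the genes were chosen partly on them. Among single genes, NV2.9412 had its highest knockdown library apart by 0.728 (pair 3), NV2.23908 its highest control library by 0.716 (pair 1), and NV2.19682 and NV2.19626 their lowest control library by 0.803 and 0.866 (pair 3). The mean fragment length had its lowest control library, that of pair 4, apart by 0.741.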

How the results depend on the processing

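Membership depended on scaling and limits. Of the 200 genes, 18 were kept under total counts only, 17 on gene TPM, 58 with a mean of at least 200, 121 with a mean of at least 10, 51 with a pair limit of 1, 1 with no limit, and 83 with the 10 most abundant genes left out of the total, an alternative chosen after seeing the data. The TMM factors, a pseudocount of 5, the SD of the pair means and batch means kept 181, 178, 178 and 185, and leaving out 1 pair kept 67 (pair 3) to 182. Sets rebuilt this way held 3 genes above in pair 3 alone under total counts and 8 on TPM. The split counts of 105, 13 and 8 were 103, 14 and 7 with TMM factors. Genes called between batches went from 496 to 14683 with library size only, 1445 with DESeq2 and 551 without the batch of pair 3. They ran from 60 to 1704 when 1 library was left out. Of the 200 genes, 97 became 111 with library size only, 170 with DESeq2, 47 without the batch of pair 3, and 11 to 112 without 1 library. Without the batch of pair 3 the count of the 200 thus fell while that of all genes did not. In the fit with the replicate block, 57 genes and 10 of the 200 were called between pairs, and after knockdown 820 were lower and 314 higher, against 803 and 229 without it. Library size only left 21 genes higher after knockdown, and leaving out 1 library gave 747 to 859 lower and 153 to 258 higher, with 0 of the 200 in every fit. Changed transcript shares went from 8 genes to 0 with a pseudocount of 5, 3 with a minimum of 50, 3 without pair 3 (chosen after seeing the data), 6 with the replicate block and 0 to 79 without 1 library; the 1 member called became 0 with the pseudocount of 5 and without pair 3, and 0 to 1 without 1 library. On total counts and TPM the 105 genes had a median deviation in pair 3 of −0.34 and −0.05, against 1.04 on the scale used, and the median length of the rebuilt 200 went from 2838 bases to 1404 and 1126, below that of the genes not chosen in the main set (2383). The causes were not tested. For the ranges of single named genes, 130 alternative values moved by less than the spread between the 2 libraries of a pair and 77 by more. The limit on the pair difference kept that spread small. Only 2 libraries stand behind each of batches LA40, LA42 and LA45, most of the 200 genes have low counts, and a 2-fold batch change was seldom called in simulated data, so the batch test is weak at the size of most ranges here.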
